A study of Rattus norvegicus with 18 samples.

Results

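Bacterial communities of rats in the TG group were compared with those of untreated control rats, library by library. The comparison takes the 6 TG and the 6 control libraries, 12 of the 18 libraries of the series, chosen by their labels alone. All rats are labelled wild-type, and the material is labelled both as intestinal contents and as stool. Control rats were untreated. TG rats carry the group tag TCM treatment and are described as having received a therapeutic intervention. The sources used here do not give the agent, its dose or timing, what TG stands for, the age or strain of the rats, or whether TG rats were irradiated. The remaining 6 libraries come from rats with induced radiation enteritis, called model, and are used below only for values set beside the comparison and for the shared estimate of spread in one fit. The series text calls the replicates biological, but no label ties a library to a named animal, so p-values measure the spread between these samples.

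The 16S rRNA gene is present in every bacterium, and its variable stretches differ between lineages, so counting amplified copies gives the share of each sequence in a community. A genome can carry several copies that differ slightly, so that more than 1 feature can come from the same organism. Gut communities are typically uneven, with a few abundant sequences and a long tail of rare ones, and a rank-abundance curve draws this by ordering the features of a sample from the most to the least abundant. Evenness describes how equally the counts are spread over those features, and prevalence in how many samples a feature is seen. Features seen in all samples of a group are called its core here. Radiation enteritis is injury of the bowel lining after irradiation, and changes of the gut community are a known accompaniment.

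Each library is described as shares, a feature's counts divided by the total of its library. The 12 libraries hold 400274 counts of 6145 features, of 8405 features in the whole table. Totals ran from 33076 to 40192 in control and from 23894 to 40575 in TG, so control libraries held more counts on average (37208 ± 2717 counts against 29504 ± 5996; SD, n = 6 each). These are counts after denoising and clustering, and the number of reads sequenced is not known. All libraries carry 1 batch label. The features have no taxon, because the deposited taxonomy and the count table share 0 identifiers, and the files hold no feature sequences. Features are therefore named by their rank in the mean profile of a group, as in control rank 1 or TG rank 6. TG 5 stands apart from the other TG libraries. It had the largest total, 40575, and the fewest features seen, 276, against 844 to 1078 in the other 5, and results that rest on it are given with and without it. Even the most similar libraries, control 2 with control 4, were 0.265 apart in Bray-Curtis distance (0 for identical and 1 for disjoint profiles), so no library was a copy of another.

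TG communities were less dominated by a few features than control communities. The most abundant feature held 12.4%, 11.5%, 8.46%, 10.6%, 12.7% and 8.18% of counts in control 1 to 6, and 3.54%, 2.06%, 3.91%, 2.32%, 4.23% and 5.49% in TG 1 to 6. Every TG library was lower than every control library. The mean was 10.6% ± 1.93 in control and 3.59% ± 1.27 in TG (SD, n = 6 each; two-sided exact permutation test over all assignments of the 12 libraries to groups of 6, p = 0.00216, the smallest this design allows; adjusted p = 0.00613 over 17 community values tested together). The 10 most abundant features of each library together held 58.9%, 61.2%, 58.4%, 65.4%, 61.1% and 49.7% in control 1 to 6. In TG 1 to 6 the same quantity was 23.5%, 15.3%, 22.6%, 17%, 35.6% and 31.7%. Again the groups did not overlap, and the mean fell by 34.8 percentage points, from 59.1% ± 5.24 to 24.3% ± 8.02 (SD, n = 6 each; exact permutation p = 0.00216, adjusted p = 0.00613). In model libraries, set beside these without a test, the top 10 features held 27.7% to 58.9%.

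The rank-abundance curves of the groups crossed at rank 11. At ranks 1, 2, 3 and 5 the mean share was 2.96, 2.94, 2.68 and 2.21 times higher in control, and at rank 10 it was nearly equal, 1.65% ± 0.327 in control and 1.50% ± 0.668 in TG (SD, n = 6 each). From rank 11 on the TG mean was the higher one. At rank 50 it was 0.353% ± 0.0434 against 0.207% ± 0.0427, and at rank 100 it was 0.196% ± 0.0485 against 0.116% ± 0.0222 (SD, n = 6 each). The ratio widened along the tail, to 1.94 times at rank 200 and 3.23 times at rank 500. At rank 500 the control mean, 0.00593%, was below 3 counts of any control library (0.00746% to 0.00907%). The lowest library of each group had a share of 0 there, so that last ratio lies at the counting floor. With TG 5 left out the crossing lay at rank 13, and rank 27 was the first at which each of the other 5 TG libraries exceeded each control library. The slope of the log10 share on the log10 rank over ranks 1 to 100 was -1.18 ± 0.104 in control and -0.805 ± 0.213 in TG (SD, n = 6 each), a flatter curve in TG (difference 0.379, exact permutation p = 0.00866, adjusted p = 0.0184). TG 5 had a slope of -1.20, within the control range of -1.30 to -0.988, and the other TG libraries ran from -0.871 to -0.599. This slope depends on how features are counted: with covarying features merged, as described below, the difference was -0.0206 (exact permutation p = 0.933).

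**Figure D1:**
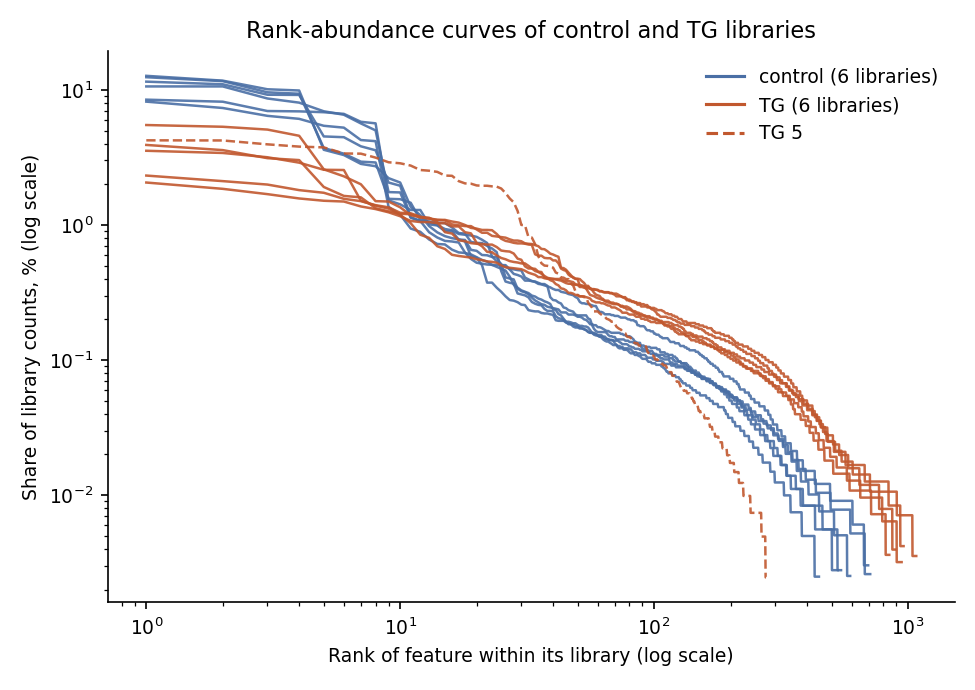
Share of library counts (%, log scale) against the rank of each feature within its library (log scale), 1 line per library, control in blue and TG in orange, TG 5 dashed. Control curves start at 8.18% to 12.7% and TG curves at 2.06% to 5.49%, and all TG curves but TG 5 lie above all control curves from rank 27 to rank 844.

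The counts of a TG library were spread over more features. Reaching 50% of the counts took 7, 7, 8, 6, 6 and 11 features in control 1 to 6. In TG 1 to 6 it took 70, 86, 44, 61, 16 and 36 features. The lowest TG library, TG 5, lay above the highest control library, control 6. The mean was 7.50 ± 1.87 in control and 52.2 ± 25.2 in TG (SD, n = 6 each; exact permutation p = 0.00216, adjusted p = 0.00613). Reaching 90% of the counts took 150.3 ± 36.4 features in control and 314 ± 125 in TG (SD, n = 6 each; exact permutation p = 0.0152, adjusted p = 0.0258). Here the groups overlapped through TG 5, which needed 69, fewer than any control library, whereas the other TG libraries needed 309 to 403 and control libraries 95 to 201. The share of the top 100 features gave the same picture, at 85.1% ± 3.81 in control and 66.2% ± 14.6 in TG (SD, n = 6 each; exact permutation p = 0.0152, adjusted p = 0.0258), with 94.3% in TG 5 and 53.6% to 66.8% in the others. Both calls ended with control 1, 3 or 4 or TG 1, 2, 3, 4 or 6 left out (adjusted p = 0.0502 to 0.0569), while without TG 5 the differences grew to 213 features and -24.5 percentage points (exact permutation p = 0.00216, adjusted p = 0.00335 each).

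Evenness was higher in TG. Pielou's index, the Shannon index divided by its largest value for the number of features seen, was 0.650, 0.645, 0.664, 0.629, 0.627 and 0.710 in control 1 to 6. The TG libraries 1 to 6 had 0.844, 0.865, 0.813, 0.836, 0.757 and 0.793, each above every control library. Means were 0.654 ± 0.0305 and 0.818 ± 0.0389 (SD, n = 6 each; exact permutation p = 0.00216, adjusted p = 0.00613), and 0.739 ± 0.0560 in model (SD, n = 6). The inverse Simpson index, the number of equally abundant features that would give the same chance that a pair of drawn counts belongs to 1 feature, ran from 17.9 to 32.4 in control and from 45.6 to 199.6 in TG. Its mean was 22.0 ± 5.57 in control and 118 ± 57.7 in TG (SD, n = 6 each; exact permutation p = 0.00216, adjusted p = 0.00613). The Hill number of order 1, the same kind of effective number from the Shannon index, was 66.3 ± 19.6 in control and 262 ± 112 in TG (SD, n = 6 each; exact permutation p = 0.00433, adjusted p = 0.0105). TG 5, at 70.5, lay below control 6, at 104, and the other TG libraries lay between 209 and 381.

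As a further measure of evenness, the inverse Simpson index was divided by the Hill number of order 1, which gives more weight to rare features. The ratio was 0.337 ± 0.0431 in control and 0.462 ± 0.114 in TG (SD, n = 6 each; exact permutation p = 0.0238, adjusted p = 0.0368). TG 1, at 0.392, and TG 6, at 0.320, lay inside the control range of 0.291 to 0.407, and TG 5 was highest at 0.647. This call ended without control 1, 2, 3, 5 or 6 or TG 2, 3, 4 or 5 (adjusted p = 0.0526 to 0.0870), and with covarying features merged (0.0528, exact permutation p = 0.416). The ratio also depends on rare features. With features under 10 counts over the 12 libraries left out, its mean was 0.373 in control and 0.522 in TG.

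**Figure D2:**
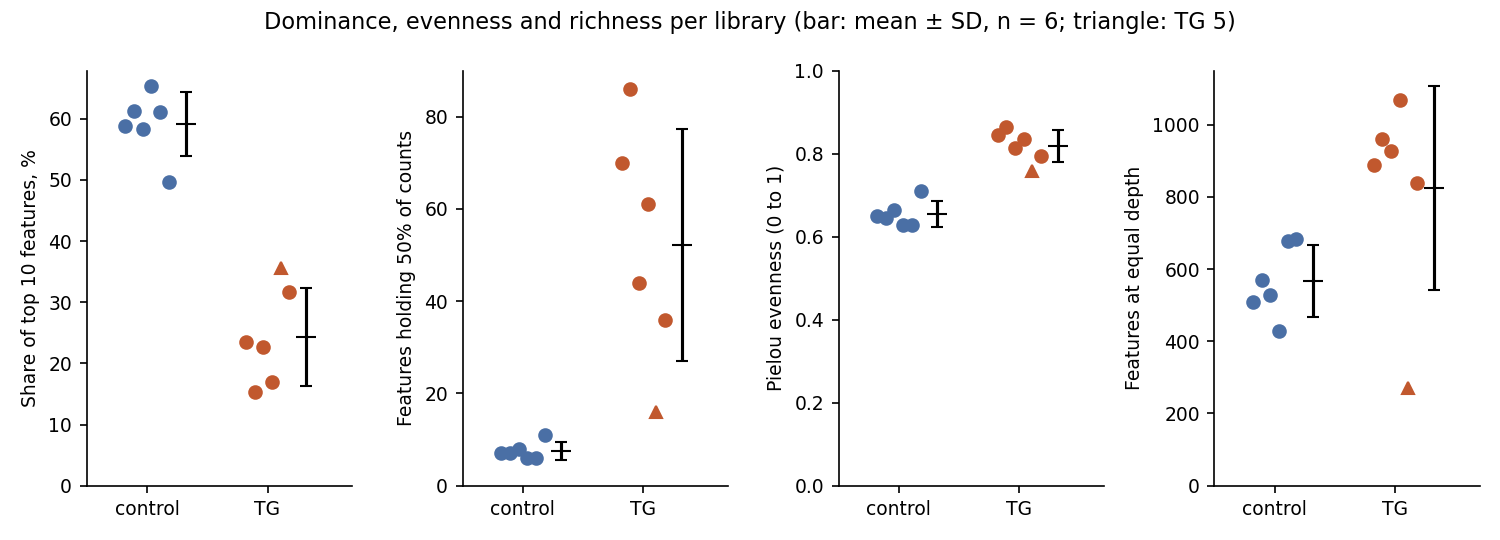
Values per library in control (blue) and TG (orange): the share of the top 10 features (%), the number of features holding 50% of counts, Pielou evenness (0 to 1) and the number of features at equal depth; points are libraries, the triangle is TG 5 and bars are mean ± SD (n = 6). The groups separate fully in the first 3 panels, and in the last TG 5, at 271 features, lies below every control library.

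Library totals differed between the groups, so each value was also computed after thinning every library to 23894 counts, the total of TG 2. The differences were then -34.8 percentage points for the top 10 features, 44.9 for features holding 50% of counts and 0.162 for Pielou evenness, nearly as large as without thinning. Features also moved in sets. The features of control ranks 1, 2, 4 and 5 belonged to a set of 9 features that were joined by average linkage at a correlation of 0.9 of their square-root shares over the 18 libraries, and those of control ranks 3, 6, 7 and 8 to a set of 7. Merging such sets into single units, an alternative chosen after the data were seen, left the groups different in dominance. The largest unit then held 42.1% in control and 13.8% in TG on average, and Pielou evenness was 0.475 and 0.714 (exact permutation p = 0.00216, adjusted p = 0.00736 each). The inverse Simpson index was much smaller in both groups, 4.64 in control and 34.5 in TG, so the size of that difference, 29.9 in place of 95.5, depends on what counts as 1 unit.

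Richness was not called different. At an equal depth of 23894 counts, 509, 569.7, 528, 428, 678 and 682 features were expected in control 1 to 6, and 889, 961, 926, 1068, 271 and 838 in TG 1 to 6. The 5 TG libraries other than TG 5 lay above every control library, and TG 5 lay below every one. The difference of 259.9 features (566 ± 99.7 against 826 ± 282; SD, n = 6 each) missed the threshold (adjusted p = 0.0951 and unadjusted p = 0.0671 by the exact permutation test). Without TG 5 it was 371 (exact permutation p = 0.00216, adjusted p = 0.00335). TG 5 had Pielou evenness of 0.757, above every control library, with the fewest features of the 12.

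The number of libraries in which a feature was seen was not called different between the groups, while the counts behind the prevalence classes differed. Control libraries held 2737 features in all and TG libraries 3859, a difference of 1122 that missed the threshold (adjusted p = 0.116 and unadjusted p = 0.0887 by the exact permutation test) and was 1369 without TG 5 (exact permutation p = 0.00433, adjusted p = 0.00566; both groups then counted over 5 libraries). Of these, 86.2% in control and 86.5% in TG were seen in a single library of the group. A feature was seen in 1.29 libraries of its group on average in both (exact permutation p = 0.807, adjusted p = 0.858). The core held 49 features in control and 52 in TG (exact permutation p = 0.922, adjusted p = 0.922). At 5 libraries the numbers were 16 in control and 37 in TG, at 4 libraries 42 and 82, and at 3 libraries 76 and 131. These middle classes were not tested.

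Although of nearly equal size, the core of each group carried a different weight. The 49 control core features held 74.5% of control counts, and the 52 TG core features held 44.5% of TG counts, 30.1 percentage points less. At the other end, features seen in a single library of their group held 11.2% of control and 19.1% of TG counts. Both values were tested after the data were seen, with the classes recomputed for every assignment of libraries: the exact permutation p was 0.0260 for the core share (adjusted p = 0.0260 over these 2 tests) and 0.00433 for the single-library share (adjusted p = 0.00866). The first call ended without TG 1, 2, 3 or 4 (adjusted p = 0.0541 to 0.0758). TG 5 differed from its group again: 82.0% of its counts were in the TG core, against 25.6% to 45.2% in the other TG libraries.

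Pairs of control libraries shared 105 features on average (86 to 141, 15 pairs), and pairs of TG libraries 150.3 (81 to 229, 15 pairs), a difference of 45.6 that missed the threshold (adjusted p = 0.126 and unadjusted p = 0.104 by the exact permutation test). Among the 10 TG pairs without TG 5 the mean was 180.3, and the difference of 75.6 then passed (exact permutation p = 0.00433, adjusted p = 0.00566). A control and a TG library shared 90.8 features on average (58 to 170, 36 pairs).

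**Figure D3:**
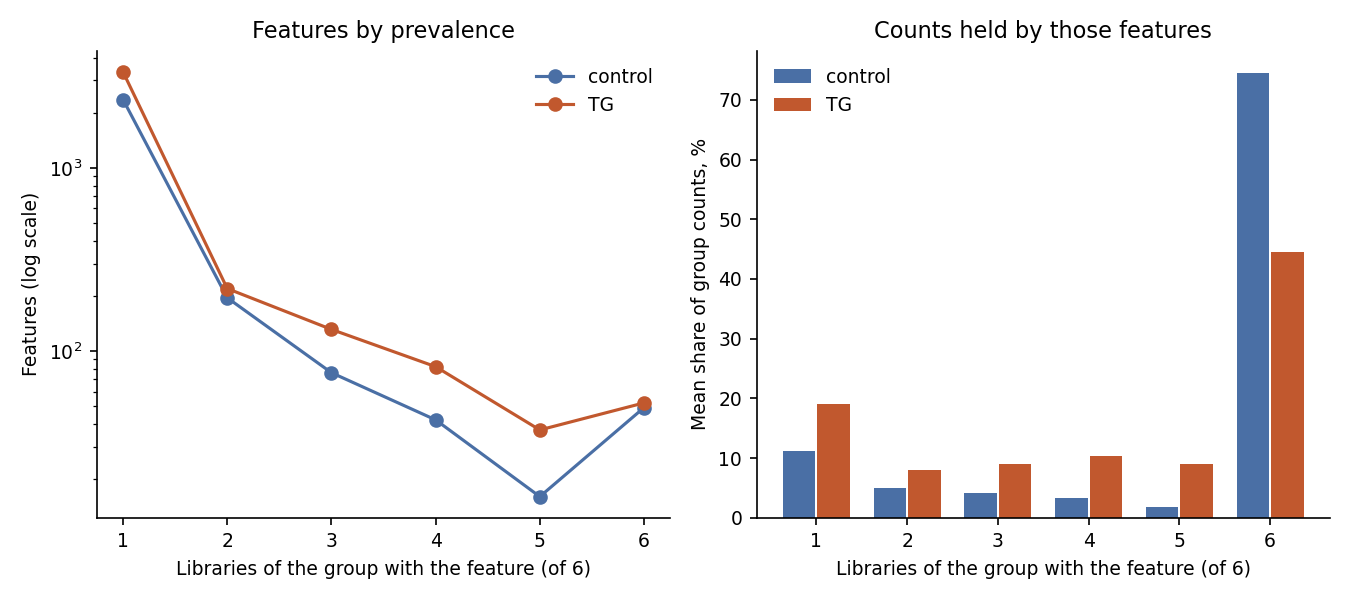
Left, number of features (log scale) seen in 1 to 6 libraries of control (blue) and TG (orange); right, the mean share of group counts (%) those features hold. On the left the groups lie closest at 2 and 6 libraries and farthest apart at 5, with 16 and 37 features; on the right the features of all 6 libraries hold 74.5% in control and 44.5% in TG.

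The cores overlapped in part. They shared 24 features, 49.0% of the control core and 46.2% of the TG core. The shared features held 65.1% ± 5.08 of control counts (56.8% to 71.7%) and 25.6% ± 14.9 of TG counts (12.5% to 51.9%; SD, n = 6 each). So most of the control community by counts consisted of features that each TG library still contained, at a lower share. TG 5 was highest with 51.9%, and without it the TG mean was 20.3% ± 8.35 (SD, n = 5). Membership in these classes was chosen from the same libraries, so the shares are given as a description, without a test. In model libraries the shared core held 17.4% to 71.1%.

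Another 25 features were core in control but not in TG, and held 9.46% ± 1.91 of control and 4.32% ± 2.03 of TG counts (SD, n = 6 each). Of these, 14 were seen in 5 of 6 TG libraries, where they held 3.86%, against 3.59% in control. Another 7 were seen in only 1 or 2 TG libraries and held 5.19% ± 1.98 in control and 0.294% ± 0.489 in TG (SD, n = 6 each). TG 2, TG 4 and TG 6 had no count of these 7, and TG 5 had the most, 1.26%. None of the 49 control core features was missing from every TG library.

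The TG core had 28 features outside the control core, at 0.612% ± 0.295 of control and 18.9% ± 9.33 of TG counts (SD, n = 6 each). Of these, 15 had 0 of 223249 control counts, which by counting error alone allows a share of up to 0.00134% over the group. They held 3.01%, 7.70%, 7.81%, 7.58%, 14.2% and 21.3% of TG 1 to 6, with TG 1 lowest and TG 6 highest. Model libraries had no part in choosing those 15 features. Model 5 held 24.2% in them, and model 1, 2, 3, 4 and 6 held 0.536% to 2.97%. A further 6 features were seen in 1 or 2 control libraries and 7 in 3 to 5. The 49 control core features numbered 44, 39, 44, 41, 44 and 28 in TG 1 to 6, so TG 6 lacked the most.

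Of all 6145 features, 451 (7.34%) were seen in both groups, the 49 control core features among them. The 451 held 85.8% ± 3.95 of control and 59.0% ± 13.4 of TG counts (SD, n = 6 each). The 2286 features seen in control alone (37.2% of all) held 14.2% ± 3.95 of control counts (SD, n = 6). The 3408 seen in TG alone (55.5% of all) held 41.0% ± 13.4 of TG counts (SD, n = 6). Their share was highest in TG 2 with 58.1% and lowest in TG 5 with 21.5%. Most of these features, 2150 in control and 3175 in TG, were seen in a single library, and such features fall in 1 group under any assignment of libraries. These classes were cut from the same libraries, so they are given as a description, without a test. Of the features absent from control, 233 (3.79% of all) were seen in 2 or more TG libraries and held 24.7% ± 7.18 of TG counts (SD, n = 6). Of those absent from TG, 136 (2.21% of all) were seen in 2 or more control libraries and held 5.24% ± 1.41 of control counts (SD, n = 6). With 4 or more libraries required, the numbers were 54 features (0.879% of all) with 16.3% ± 4.88 and 16 features (0.260% of all) with 1.27% ± 0.286 (SD, n = 6 each).

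From the mean control to the mean TG profile, 67.4% of counts changed features. This is the sum of all gains in mean share, which equals the sum of all losses, and it passed the exact permutation test at the smallest p this design allows (p = 0.00216, one-sided by nature; adjusted p = 0.00613). It was 65.4 to 71.2 percentage points with any 1 library left out. Single TG libraries differed from the mean control profile by 69.1, 81.0, 66.5, 74.7, 59.1 and 83.6 percentage points in TG 1 to 6. Single control libraries differed from the mean of the other 5 by 23.4 to 46.7 percentage points, less than any TG library. Model libraries differed from the mean control profile by 33.5 to 80.2 percentage points.

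The loss sat in few features and the gain in many. Of the lost share, 11.1% came from the single largest loss, 52.5% from 6 features and 66.8% from 10. Of the gained share, 2.88% came from the largest gain, 13.4% from 6 features and 18.2% from 10. It took 73 features to collect 50% of the gain and 6 for 50% of the loss. For 75% the numbers were 358 and 32, and for 90% they were 1008 and 330. That asymmetry of 67 features did not pass the exact permutation test (p = 0.643, adjusted p = 0.729; 55 to 88 with 1 library left out), and it is given as a description of these 2 mean profiles. The 6 features with 50% of the loss held 34.6% to 51.3% of counts in control libraries and 4.07% to 20.8% in TG libraries, with TG 5 highest. The 73 features with 50% of the gain held 4.39% to 7.57% in control and 30.1% to 47.0% in TG libraries. Model libraries lay between and across these ranges, with 6.92% to 43.2% in the former and 16.8% to 53.7% in the latter. The 6 and the 73 features were chosen by the difference between these same control and TG means. The gap between control and TG in them is therefore set by that choice.

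Gain and loss also came from features of different prevalence. Of the gained share, 60.8% went to features seen in no control library, 21.9% to features of 1 or 2 control libraries, 9.80% to those of 3 to 5 and 7.56% to the control core. Features seen in no control and in a single TG library took 24.2% of the gain. Of the lost share, in contrast, 64.4% came from just 17 features that all 6 TG libraries still held, 21.1% from features seen in no TG library, and 11.6% and 2.85% from features of 1 or 2 and of 3 to 5 TG libraries. The lost share was therefore mostly a decrease of features that persisted, and the gained share mostly came from features without a count in control. Within the control core, 35 features had a lower and 14 a higher mean share in TG. Prevalence was read from the same libraries as the shares, so these parts are given without a test.

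**Figure D4:**
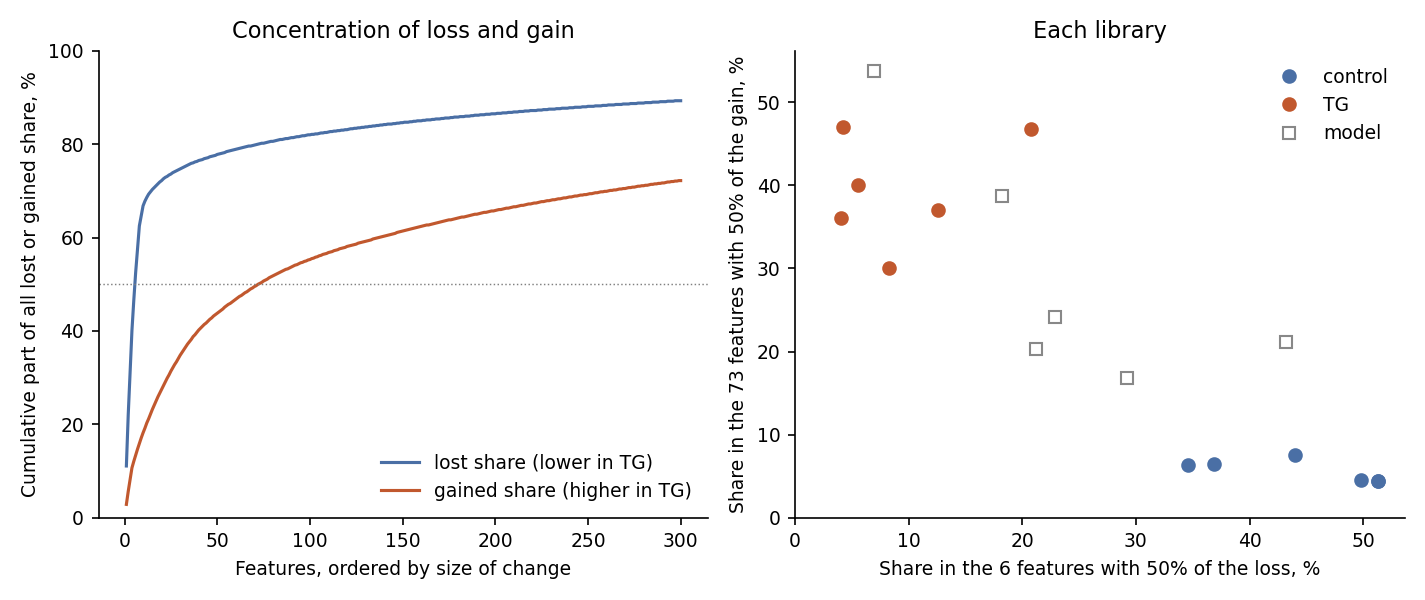
Left, cumulative part (%) of all lost (blue) and gained (orange) share of counts against the number of features, ordered by size of change; right, each library's share (%) in the 6 features with 50% of the loss and in the 73 with 50% of the gain, control in blue, TG in orange, model as open squares. The loss curve passes 50% at 6 features and the gain curve at 73, and control libraries lie at lower right, at 34.6% to 51.3% and 4.39% to 7.57% (2 of them nearly coincide). The features on the right were chosen from these same control and TG libraries, which sets the gap between the groups.

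The leading features of the groups overlapped in part. The 10 most abundant features of the mean profiles had 4 in common, the 50 most abundant 23 and the 100 most abundant 40. The control top 10 held 58.7% of control and 13.7% of TG counts. The TG top 10 held 20.8% of TG and 26.9% of control counts, more in control, because control ranks 3, 6, 7 and 8 became TG ranks 2, 1, 3 and 4. The most abundant feature was control rank 1 in control 3, 4 and 5, control rank 2 in control 2, and control rank 3 in control 1 and 6. In TG it was control rank 6 in TG 1, 3 and 4, control rank 3 in TG 5, and a feature without any control count in TG 2 (TG rank 16) and TG 6 (TG rank 6).

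Single features were tested with edgeR's quasi-likelihood test over all 18 libraries, for the 431 features that reached 10 counts in 4 or more libraries, which held 85.6% of control and 76.4% of TG counts. Of these, 159 were called at a Benjamini-Hochberg adjusted p under 0.05, which is 36.9%. Higher in TG were 123 (28.5%) and lower 36 (8.35%). The median log2 fold change of all 431 features was 1.28, and values below are given as fitted and, where said, relative to that median. Centred log-ratios were also tested by exact permutation. This scale relates each feature to the mean of all tested ones in its library, and it called 47 (10.9%), 21 higher and 26 lower, and 36 of the 47 were also called by edgeR in the same direction. The share of calls that were higher was 77.4% by edgeR, 84.9% with RLE factors (129 of 152) and 79.2% with no scaling factors (126 of 159). It was 66.7% by DESeq2 (60 of 90) and 44.7% on centred log-ratios, which change the test as well as the scaling. Of the 123 higher calls, 111 had no control count, out of 112 such features tested, and of the 36 lower calls, 23 had no TG count, out of 24 tested. Features absent from a group passed the count filter only through the libraries that held them, so nothing is read from these counts. The 36 lower calls made up 71.7% of the lost share, and the 123 higher calls 41.8% of the gained share. Each TG library lay above each control library for 26 features (6.03%) and below for 9 (2.09%).

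The largest falls were those of the 10 leading control features, all called by edgeR. Control rank 1 (2c36761e0911786576b68a081455164a) held 3.37%, 11%, 8.46%, 10.6%, 12.7% and 5.42% of control 1 to 6, and 0.399%, 0.398%, 1.60%, 0.372%, 3.37% and 0.383% of TG 1 to 6. The groups met at 3.37%, the lowest control and the highest TG value, those of control 1 and TG 5. Its mean fell from 8.57% to 1.09% ± 1.22 (SD, n = 6), 7.89-fold, and 13.6-fold without TG 5 (log2 fold change -3.24, SE 0.57, edgeR adjusted p = 1.10e-06; -4.52 relative to the median feature). Control rank 2 (af98c6e82a480da4fb3edd69fbe00afe) had almost the same shares in each library, 3.71% to 11.7% in control and 0.330% to 3.75% in TG, and a log2 fold change of -3.24 (SE 0.57, edgeR adjusted p = 1.10e-06; 7.83-fold, and 15.4-fold without TG 5). Control ranks 4 and 5 fell 8.01-fold and 8.38-fold, or 14.1-fold and 14.4-fold without TG 5, and here every TG library lay below every control library. On centred log-ratios the falls of control ranks 1, 2 and 4 did not pass (exact permutation test, adjusted p = 0.0528) and that of control rank 5 did (adjusted p = 0.0397).

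Control ranks 9 and 10 nearly vanished. Control rank 9 held 0.537% to 2.22% of control libraries and was seen in 1 TG library, TG 5, at 0.126%. Control rank 10 held 0.585% to 2.06% of control libraries and was likewise seen only in TG 5, at 0.138%. Their log2 fold changes were -6.34 (SE 1.26) and -6.16 (SE 1.27), with edgeR adjusted p of 1.80e-05 and 3.66e-05, and both also passed on centred log-ratios (adjusted p = 0.0311). Against the other 5 TG libraries, which had no count of them, the decreases came to at least 693-fold and 672-fold, with a floor of 3 counts over those libraries. Both belonged to the covarying set of control ranks 1, 2, 4 and 5, and the model libraries all held them, at 0.207% to 1.42%.

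Control ranks 3, 6, 7 and 8, members of the second covarying set, fell less. Control rank 3 held 12.4%, 4.46%, 6.93%, 6.94%, 3.29% and 8.18% of control 1 to 6, and 3.41%, 1.24%, 3.58%, 1.99%, 4.23% and 1.35% of TG 1 to 6. TG 5 and 2 more TG libraries exceeded control 5, so the groups overlapped. The log2 fold changes of these 4 features were -1.67, -1.55, -1.63 and -1.60 (2.67-fold, 2.43-fold, 2.56-fold and 2.53-fold in mean share), with edgeR adjusted p of 0.0229 to 0.0301. These calls depend on scaling. With RLE factors in place of TMM factors the log2 fold changes were -0.67 to -0.79 and did not pass (adjusted p = 0.159 to 0.251), while the median of all features moved to 2.44. On centred log-ratios (exact permutation test, adjusted p = 0.0557 to 0.0614) and with all features tested (edgeR adjusted p = 0.0817) they did not pass either, and without TG 2 those of control ranks 6, 7 and 8 ended (adjusted p = 0.0520 to 0.0694). The call of control rank 8 also ended without control 1 or TG 1, 4 or 6 (adjusted p = 0.0536 to 0.0614).

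Not all leading features fell. Control ranks 11 and 12 held 0.579% to 1.55% and 0.654% to 1.46% of control libraries, and 0.866% to 3.95% and 1.03% to 3.80% of TG libraries, where they became TG ranks 5 and 7. Their log2 fold changes of 0.50 (SE 0.78) and 0.61 (SE 0.79) were not called (edgeR adjusted p = 0.765 and 0.688). Relative to the median feature they were -0.77 and -0.66, so their sign depends on the reference.

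The 4 largest rises belonged to 1 covarying set of 8 features, and all 4 reached the TG top 10. TG rank 6 (2eb0317b744004410680039ca426a1c1) held 0.174%, 0.385%, 1.33%, 1.40%, 2.86% and 5.49% of TG 1 to 6 and had 0 of 223249 control counts. Every TG library contained it, with a spread of more than an order of magnitude and TG 6 highest. It was at least 1525-fold higher in TG over the pooled counts of the group, and at least 1050.1-fold without TG 6 (edgeR adjusted p = 5.21e-14). TG rank 8 (bc9b7a2b3c9fb93b6549f04f1384b3da) held 0.237% to 5.33% of TG libraries and was seen in 1 control library, control 1, at 0.0473%. Its mean was 240.1 times that of control, 153 times without TG 6, and at least 1253 times without control 1 (log2 fold change 7.49, SE 1.23, edgeR adjusted p = 1.22e-07). TG ranks 9 and 10 had no control count and were at least 1361-fold and 1276-fold higher, or 912-fold and 883-fold without TG 6 (edgeR adjusted p = 2.91e-12 and 3.55e-12). These 4 features followed one another closely, with TG 6 highest and TG 5 second in each, and in model their highest share, 4.80% to 6.03%, was in model 5. All named rises were picked from the calls. Those without a control count, TG ranks 6, 9, 10, 16, 27 and 33, passed the count filter only through TG and model libraries. TG ranks 8, 21, 28 and 30 had counts in 1 control library each. They could not have reached the required 4 libraries without TG and model libraries. The p-values of all named rises, here and below and on either scale, are therefore given as a description and not as separate support.

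TG ranks 16, 21 and 27 formed another covarying set with a different order of libraries. TG rank 16 held 0.257%, 2.06%, 0.875%, 0.918%, 0.483% and 0.758% of TG 1 to 6, with TG 2 highest, and had no control count. It was at least 629-fold higher in TG, and at least 488-fold without TG 2 (edgeR adjusted p = 1.10e-06). TG rank 27 was at least 515-fold higher. TG rank 21, seen at 0.115% in control 6 alone, had a mean 43.9 times that of control, and at least 511 times without control 6 (edgeR adjusted p = 0.00702). All 3 also passed on centred log-ratios (adjusted p = 0.0311).

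TG ranks 28 and 30 were led by TG 6, with 2.58% and 2.29%, and TG 2, with 1.16% and 1.03%. TG rank 28 was missing from TG 4 and TG 5 and TG rank 30 from TG 5, and each was seen in control 6 alone, at 0.0877% and 0.0605%. Their mean shares were 48.5 and 66.5 times those of control, 22.8 and 34.4 times without TG 6, and at least 406 and 385 times without control 6 (edgeR adjusted p = 0.00835 and 0.00704). Neither passed on centred log-ratios (adjusted p = 0.329 and 0.0972). TG rank 33 was led by TG 5, with 1.95% against 0.0780% to 0.733% in the others, and had no control count (at least 542-fold higher, 273-fold without TG 5; edgeR adjusted p = 5.07e-06). The rises were thus led by different TG libraries, TG 6, TG 2 or TG 5. For control ranks 1 to 10 every TG library lay below the control mean. Every TG library lay below every control library only for control ranks 4, 5, 9 and 10. Among the named rises every TG library lay above every control library, except for TG ranks 28 and 30.

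**Figure D5:**
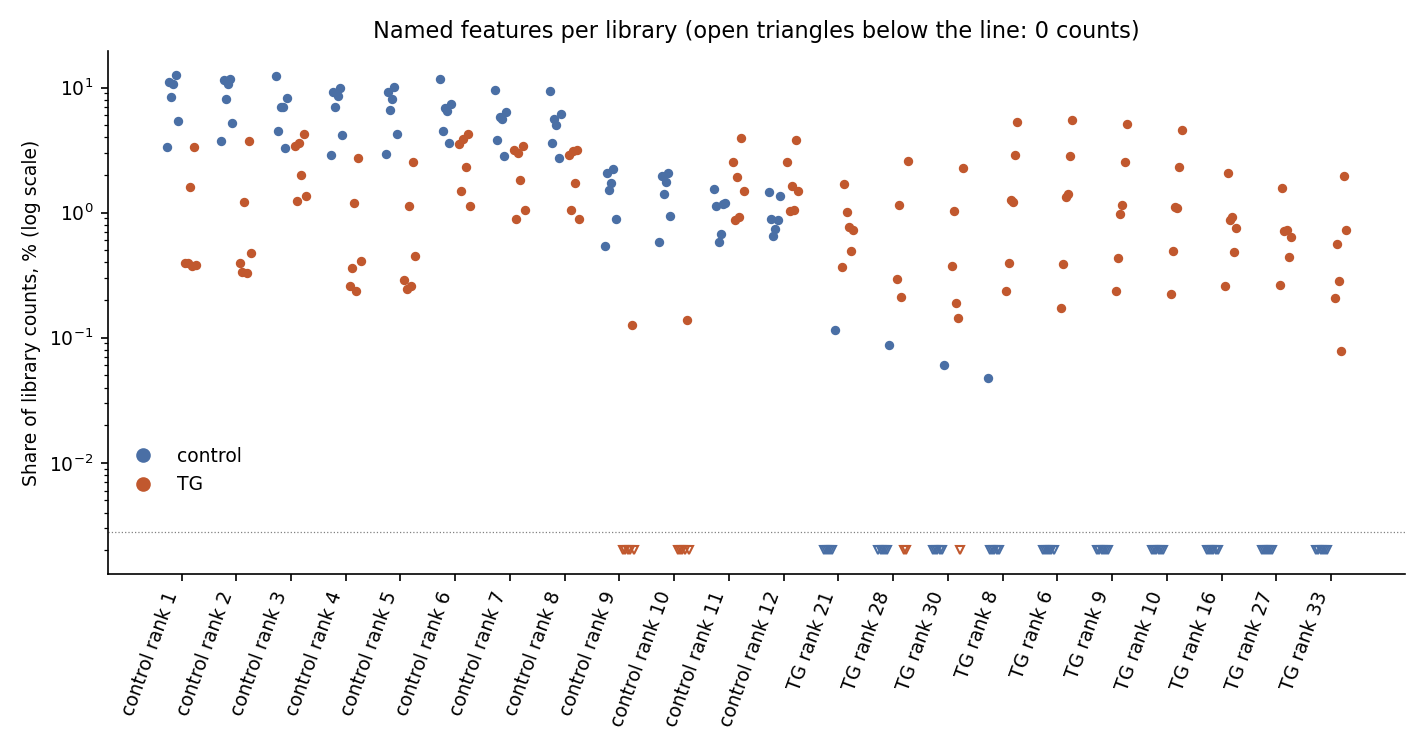
Share of library counts (%, log scale) of the 22 named features in each control (blue) and TG (orange) library; open triangles under the dotted line are libraries with 0 counts. Control ranks 1 to 10 have lower means in TG, among TG libraries control ranks 9 and 10 have a count only in TG 5, and 6 of the TG-ranked features have no control count.

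By core class the fitted changes lined up with prevalence, as they must for classes cut from the same libraries, so nothing is read from these numbers. All members of these classes passed the count filter. Of the 24 features core in both groups, edgeR called 8 lower and none higher (median log2 fold change -0.66, against 1.28 for all 431). Of the 25 core in control alone it called 5 lower (median -1.59), and of the 28 core in TG alone 22 higher (median 8.94). Over all 431 features, 8.35% were called lower and 28.5% higher. Among the 24 shared core features 16 were not called in either direction.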

How the data were processed

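The deposited table holds whole read counts per sequence feature and library. Per the labels' protocols, 16S rRNA gene variable regions were amplified with barcoded primers and prepared with an Illumina TruSeq Nano kit; per the series' design text the reads were denoised and clustered, and per the file headers the counts were exported from a BIOM table. The sources used here do not give the tool, trimming or filters. Shares are counts over the library total. Totals ran from 23894 to 40575, so 3 counts equal 0.00739% to 0.0126% of a library, which covers counting error only.

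Community values were compared by exact permutation over all assignments of 12 libraries, two-sided unless said, with Benjamini-Hochberg adjustment over 17 values, and over 2 more chosen after the data were seen. Alternatives that covered fewer values, such as medians, were adjusted over those values alone. Equal depth means expected features in 23894 counts. Features were tested with edgeR 4.0.16 (R 4.3.3; quasi-likelihood, TMM) over all 18 libraries. Named features are the 10 largest rises and falls in mean share among the calls and the 10 leading features of each group. The scripts were tested on simulated data. Alternatives were thinning, DESeq2 1.42.0, RLE or no factors, other count filters, control and TG alone, centred log-ratios (pseudocount 0.5), a replicate block, medians, each library left out and, chosen after the data were seen, merged covarying features. The taxonomy table was left out because none of its identifiers matched. The comparison and its rules were chosen with earlier results of these data known.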

Additional observations from a re-analysis of the deposited data

Results flagged for a closer look

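A library far from the other 5 of its group, by Dixon's criterion at its 95% critical value, was found in 14 of 66 groups of values examined. Chance alone marks some such groups, and many of these values share libraries and covarying features, so the marks are not independent of one another.

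TG 5 accounted for 7 of them. Its top 100 features held 94.3% of counts, against 53.6% to 66.8% in the other TG libraries, and 69.0 features held 90% of its counts, against 309 to 403. At equal depth it had 271 features, against 838 to 1068. Control rank 2 held 3.75% of TG 5, against 0.330% to 1.21%, and control ranks 9 and 10 held 0.126% and 0.138%, against 0 in the others. TG rank 33 held 1.95% of TG 5, against 0.0780% to 0.733%.

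TG 2 stood apart in TG rank 16, with 2.06% against 0.257% to 0.918%, and in TG rank 27, with 1.57% against 0.265% to 0.730%. Control 6 had a Hill number of order 1 of 104, against 46.4 to 65.7 in the other control libraries, and was the single control library with TG rank 21 (0.115%), TG rank 28 (0.0877%) and TG rank 30 (0.0605%). Control 1 alone held TG rank 8, at 0.0473%.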

How the results depend on the processing

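The shares of the top 1 and top 10 features, the features holding 50% of counts, Pielou evenness, the inverse Simpson index, the Hill number of order 1 and the share moved kept their direction and side of the threshold under every alternative run. With a library left out, the ranges that crossed the threshold or 0 were -24.5 to -16.4 percentage points for the top 100 features, 146 to 213 for features holding 90% of counts, 0.0882 to 0.154 for the ratio of Hill numbers, 211 to 371 for features at equal depth, 30.7 to 75.6 for features shared per pair, 786 to 1369 for features in the group, -0.00377 to 0.0202 for mean libraries per feature and -32.3 to -25.6 percentage points for the core share. As a difference of medians, features at equal depth passed (359; exact permutation p = 0.0455, adjusted p = 0.0455). That adjustment was over the per-library values alone, so the pass is not comparable with the main adjustment. Merging covarying features gave -0.0206 for the slope, 0.0528 for the ratio of Hill numbers, -1 for features in all libraries and -0.0105 for mean libraries per feature, and thinning gave -0.000774 for the last. Called features numbered 159 by edgeR, 90 by DESeq2, 70 with a stricter filter, 27 with none (6145 tested), 47 on centred log-ratios and 50 with the replicate block. Control ranks 11 and 12 turned to -0.59 and -0.50 on centred log-ratios. Apart from fewer or more features tested, the causes were not tested.

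No pairing by replicate number was seen: deviations of same-numbered libraries correlated at -0.18 to 0.06. The labels state no pairing, and these correlations cannot exclude one. With the numbers as a replicate block in a sign-flip test, the top 100 share (-18.9) and the features holding 90% of counts (164) missed the threshold (exact permutation, adjusted p = 0.0688 each). By counting error alone, a feature listed at 0 could stand for up to 3 counts per library. Sequences removed in denoising and clustering are not covered by that bound. Folds given as at least, which use 3 counts over a group, have the same limit.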
